A study of Mus musculus with 1 sample.

Results

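Histone genes were read by 63 probes naming 58 genes, out of 23473 gene probes and 19321 named genes on the array. They were chosen by symbol alone, as the genes whose name in the platform annotation follows the patterns for histones H1, H2A, H2B, H3 and H4. Of these, 49 genes with 54 probes were assigned by symbol to the histone gene clusters. The other 9 genes, with 9 probes and a pseudogene among them, are called variants here. The sample was total RNA of the parental RAW264.7 line, a mouse macrophage-like line grown in serum-containing medium and not treated with the mutagen. The study set this line against mutants made with the alkylating mutagen ENU that no longer took up the protein peroxiredoxin. Mutant arrays were not analysed here, so the data are 1 one-colour array labelled with Cy5, with no replicates, no comparison of conditions and no p-value.

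Signal is the median pixel intensity of a spot in the Cy5 channel, in arbitrary units, with no background subtracted, and a gene takes its highest probe. The blank limit, 22.98, is the trimmed mean of the empty spots plus 2 SD. A stricter bound, called the receptor limit, lies at 55.76, under which 95% of 1224 probes for smell, taste and pheromone receptors fall, families that serve mainly sensory cells. Probes differ in how well they bind, so the order of readings of different genes is an order of spots and not of transcript levels. Of the markers of cell identity, 12 of 12 macrophage markers lay over both limits. Of 21 markers of other cell types, 13, or 61.9%, lay over the blank limit. Over the receptor limit lay 1, or 4.762%, the germ cell gene Ddx4 at 190.5. The shares over all genes were 72.8% and 42.8%.

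Histones are the proteins around which DNA is wound. H2A, H2B, H3 and H4 form the core of the nucleosome and H1 binds the DNA that links cores. Clustered, or replication-dependent, histone genes have many near-identical copies, are transcribed while DNA is copied, and make mRNAs that end in a stem-loop instead of a poly(A) tail. Variant, or replacement, histone genes are mostly single copies with poly(A)-tailed mRNAs, and many are transcribed through the whole cell cycle. The amplification kit named in the labels starts from an oligo(dT) primer, which binds poly(A) tails. Its part in the readings of the clustered genes was not tested.

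Nearly all clustered histone genes lay over the blank limit, which most markers of other cell types passed too. Of the 49, 47 lay over the blank limit, or 95.9%, against 72.8% of all genes, and 34 lay over the receptor limit, or 69.4%, against 42.8% of all genes. Their median gene signal was 143.8, against 40.06 for all genes. Of the 9 variants, 7 lay over the blank limit, or 77.8%, and 4 over the receptor limit, or 44.4%. At these limits the variant shares were near those of all genes, but not at every other limit tried. The variant median was 33.6. The variant share less the clustered share was thus -18.14 percentage points at the blank limit and -24.94 at the receptor limit. Without the testis members of the clusters and the germline variants, the order turned at the blank limit, where 6 of 6 variants and 45 of 46 clustered genes passed. These 6 variants still held the pseudogene H1f11-ps. With it left out as well, the order also turned at the receptor limit. There 4 of 5 variants passed, or 80%, against 34 of 46 clustered genes, or 73.9%. The size of both differences moved with the limit. With the blanks' 99th percentile the difference was -38.32 points. There 46 clustered genes, or 93.9%, and 5 variants, or 55.6%, passed, against 67.8% of all genes. With the 99th percentile of the receptor probes the difference was -4.535 points. There 24 clustered genes, or 49%, and 4 variants, or 44.4%, passed, against 27.6% of all genes. With so few variants and 1 array, these shares describe the array and were not tested.

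**Figure D1:**
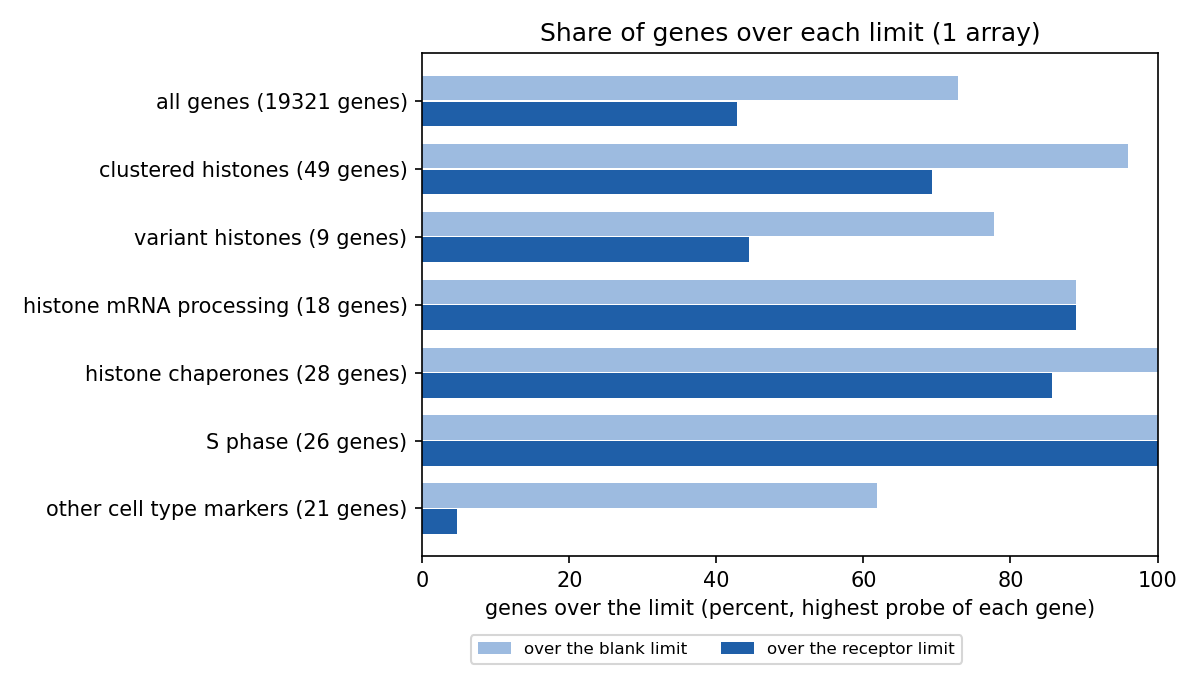
Horizontal bars, starting at 0, give the percent of genes over the blank limit (light) and over the receptor limit (dark) for all named genes, both histone classes and the lists of related genes, on 1 array. At the receptor limit the clustered histones stood at 69.4% and the variants at 44.4%, against 42.8% of all genes.

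The readings of both classes fell into a bright and a dim set. None of the 63 probes read between 432.1 and 3081, though histone genes that the pattern does not take, such as H2aj at 2239 and Macroh2a1 at 1081, did. Over a signal of 1000 lay 12 of the 54 clustered probes, or 22.2%, and 4 of the 9 variant probes, or 44.4%, against 6.4% of all gene probes. The value of 1000 was placed in this gap after the readings had been seen. All 16 bright probes belonged to the H2A and H3 families, and no H1, H2B or H4 probe was among them.

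**Figure D2:**
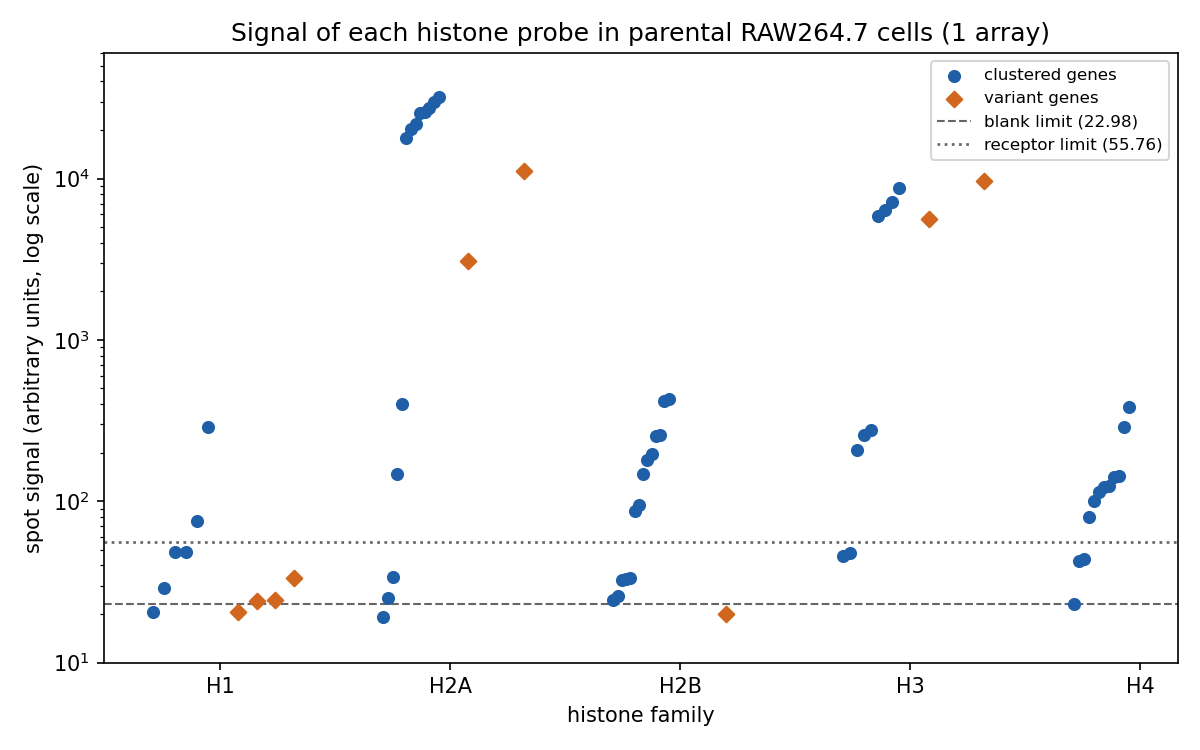
Each point is 1 histone probe on 1 array, plotted by family with its signal in arbitrary units on a log axis. Circles are clustered genes, diamonds are variants, and the lines are the blank limit (dashed) and the receptor limit (dotted). The H2A and H3 families hold a separate upper set, while clustered H2B and H4 probes reach no further than 432.1 and 384.1.

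Among the variants, the 4 bright readings came from the replacement forms of H2A and H3 that are used in most cells. H2az1 (probe M400011259), which encodes H2A.Z, the variant found at promoters and enhancers, read 11197. Its sister gene H2az2 (probe M300013029), whose protein is nearly the same, read 3081. H3.3, the variant laid down at active genes and at chromosome ends, is encoded by both H3f3a and H3f3b. H3f3a (probe M400008915) read 9706 and H3f3b (probe M200003624) read 5651. These readings were from 134.1 to 487.3 times the blank limit, and their local background was from 450.5 to 2739.

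The linker and germline variants were dim. H1f10, which encodes H1X, a linker histone of many tissues, read 33.6 and lay between the limits. H1f7 (known as H1fnt), a linker histone of spermatids, read 24.08, which is 1.048 times the blank limit. The oocyte linker histone gene H1f8 (known as H1foo) read 20.63 and was not over it. H2bfm, an H2B form of the male germ line, was not over it either, at 19.97. H1f11-ps, a pseudogene that the pattern also takes, read 24.57. No germline variant passed the receptor limit, and of the somatic variants H1f10 alone did not.

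Clustered H2A genes, which encode the standard H2A of the nucleosome, were read by both very bright and dim probes. Of 11 genes with 13 probes, 10, or 90.9%, lay over the blank limit and 8, or 72.7%, over the receptor limit, against 72.8% and 42.8% of all genes. The 8 bright probes read from 17886 to 32142, and each lay above at least 99.65% of all gene probes. They name 7 genes, namely H2ac10, H2ac11, H2ac15, H2ac18, H2ac20, H2ac22 and H2ac24, of which H2ac24 (probe M400007165) gave the 32142 and H2ac11 (probe M400012458) gave 29774. H2ac8 read 403.3. H2ac4 read 33.73 and the testis gene H2ac1, which encodes TH2A, read 25.29, both between the limits. Hist3h2a, a gene of a minor cluster, stayed under the blank limit at 19.19. The coding sequences of these copies are nearly the same, so transcripts of one copy may bind the probe of another, and the reading of each single copy is uncertain.

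Clustered H3 genes likewise had bright and dim probes. All 7 genes lay over the blank limit and 6, or 85.7%, over the receptor limit, against 72.8% and 42.8% of all genes. The bright probes named H3c4 at 8764, H3c3 at 7120, H3c15 at 6426 and H3c7 at 5880. Other H3 probes read from 45.71 to 276.4. H3c11 was at 256.3 and H3c1 at 206.3, while H3c8 was the 1 gene between the limits, at 45.71. As for H2A, these copies are alike, and a reading cannot be given to 1 copy with certainty.

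Clustered H2B genes encode the partner that pairs with H2A in the nucleosome, and none of their probes read over 1000. All 13 genes lay over the blank limit and 9, or 69.2%, over the receptor limit, against 72.8% and 42.8% of all genes. The 14 probes read from 24.26 to 432.1, with a median gene signal of 147.5. Over the receptor limit were H2bc7 at 432.1, H2bc9 at 416.3, H2bc11 at 256.3, H2bc14 at 252.7, H2bc22 at 196.1, H2bc13 at 181.2, H2bc12 at 147.5, H2bc6 at 94.8 and H2bc4 at 86.6. H2bc1, the testis gene of TH2B, read 33.03 and lay between the limits with H2bc21 at 33.24, H2bc3 at 32.31 and Hist2h2bb at 25.95. In H2bc1 the spot was no brighter than its surroundings, whose local background was 35.18. With local background subtracted, H2bc1 and H2bc3 were not over the blank limit. As for H2A and H3, transcripts of one H2B copy may bind the probe of another, so the reading of each single copy is uncertain.

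Clustered H4 genes are transcribed from many loci that all encode the same protein. All 12 genes, each with 1 probe, lay over the blank limit, and 9, or 75%, lay over the receptor limit, against 72.8% and 42.8% of all genes. Their probes read from 23.14 to 384.1, with a median of 119. H4c18 read 384.1 and H4c9 read 286.6. The other 7 over the receptor limit read from 79.41 to 143.8, and were H4c1, H4c2, H4c3, H4c4, H4c6, H4c8 and H4c12. H4c14 at 43.78 and H4f16 at 42.64 lay between the limits. H4c11 lay at 23.14, a ratio of 1.007 to the blank limit, and its local background was 23.09, so its call rests on almost no margin. The same uncertainty about single copies holds for the H4 readings.

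Clustered H1 genes encode the linker histones H1.1 to H1.5 and the testis form H1t. Of 6 genes, 5 lay over the blank limit, or 83.3% against 72.8% of all genes, and 2 over the receptor limit, or 33.3% against 42.8%, shares near those of all genes. With the receptor limit at the 90th percentile, H1f1 and H1f5 passed as well, which made 4 of 6. At that limit 49.6% of all genes passed. H1f2 read 288.2 and H1f3 read 75.72. H1f5 at 48.36, H1f1 at 48.21 and H1f4 at 29.18 lay between the limits. The H1f4 spot stood only 0.1184 over its local background. With local background subtracted, H1f3 lay under the receptor limit, at 0.9766 times the limit, and H1f1 and H1f5 lay over it, at 1.048 and 1.077 times the limit. H1f6, which encodes H1t, stayed under the blank limit at 20.53. None of the 3 testis members of the clusters, H1f6, H2ac1 and H2bc1, passed the receptor limit.

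Different probes of the same clustered gene gave widely different readings. H2ac18 has 3 probes, which read 147.5 (M400008600), 17886 (M400012465) and 25339 (M400012322). The brightest was 171.8 times the dimmest, a ratio that 3 of the 1283 genes with several probes reached, H2ac18 included. H3c7 read 47.78 on probe M300017248, under the receptor limit, and 5880 on probe M400012464. That ratio of 123.1 was reached by 6 genes. H3c3 read 276.4 and 7120, a ratio of 25.76 that 44 genes reached, or 3.429%. The annotation gives each of these 3 genes a single transcript for all its probes. H2bc6, whose 2 probes are annotated to different transcripts, read 24.26 and 94.8, a ratio of 3.908. Over all genes with several probes the median ratio was 1.892. The bright and dim sets therefore cut through single genes, and where a gene had 1 probe its set could not be checked with another.

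**Figure D3:**
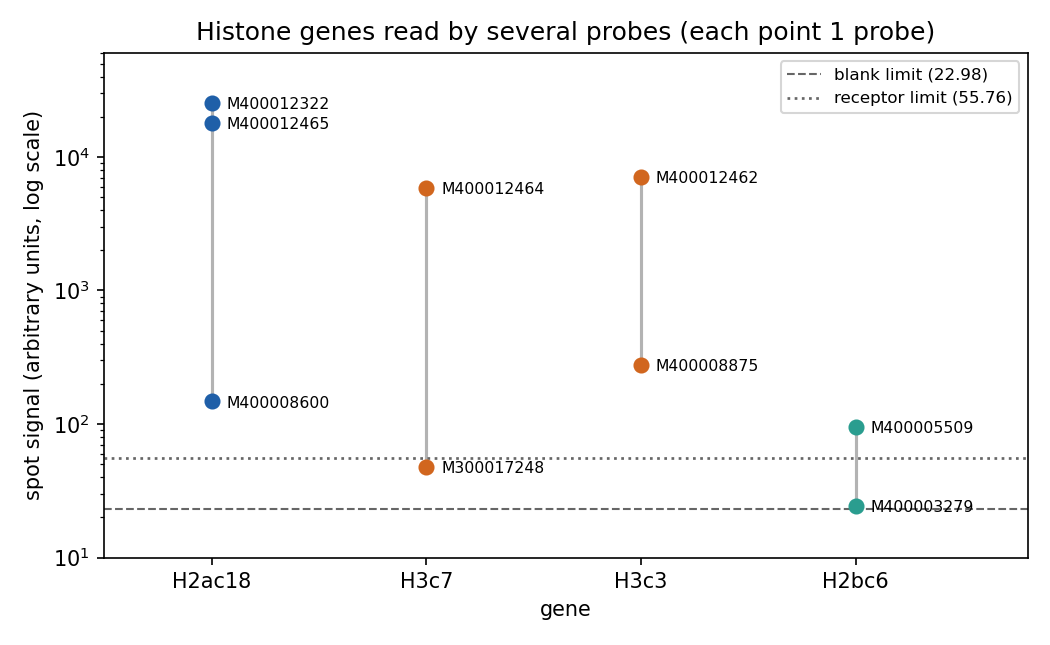
Each point is 1 probe of a histone gene that has several, with its probe name and its signal in arbitrary units on a log axis; grey lines join probes of the same gene, and the other lines are the 2 limits. H2ac18, H3c7 and H3c3 each span the gap between the dim and the bright set, and H2bc6 reads 24.26 and 94.8.

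In the largest cluster, the bright probes stood singly among dim ones in one stretch, and the genes at either end were all dim. The cluster known as Hist1, on mouse chromosome 13, held 41 of the 49 clustered genes, of which 40 lay over the blank limit and 31, or 75.6%, over the receptor limit, against 72.8% and 42.8% of all genes. In the order of the RefSeq genes, the 5 bright H2A genes of this cluster (H2ac15, H2ac22, H2ac24, H2ac11 and H2ac10) were each flanked by measured H1, H2B, H3 or H4 genes that read from 45.71 to 384.1. In the smaller Hist2 cluster, on chromosome 3, 6 of 6 genes passed the blank limit and 3, namely H2ac18, H2ac20 and H3c15, passed the receptor limit, or 50%, near the 42.8% of all genes. The single genes of Hist3 and Hist4, Hist3h2a and H4f16, did not pass the receptor limit.

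**Figure D4:**
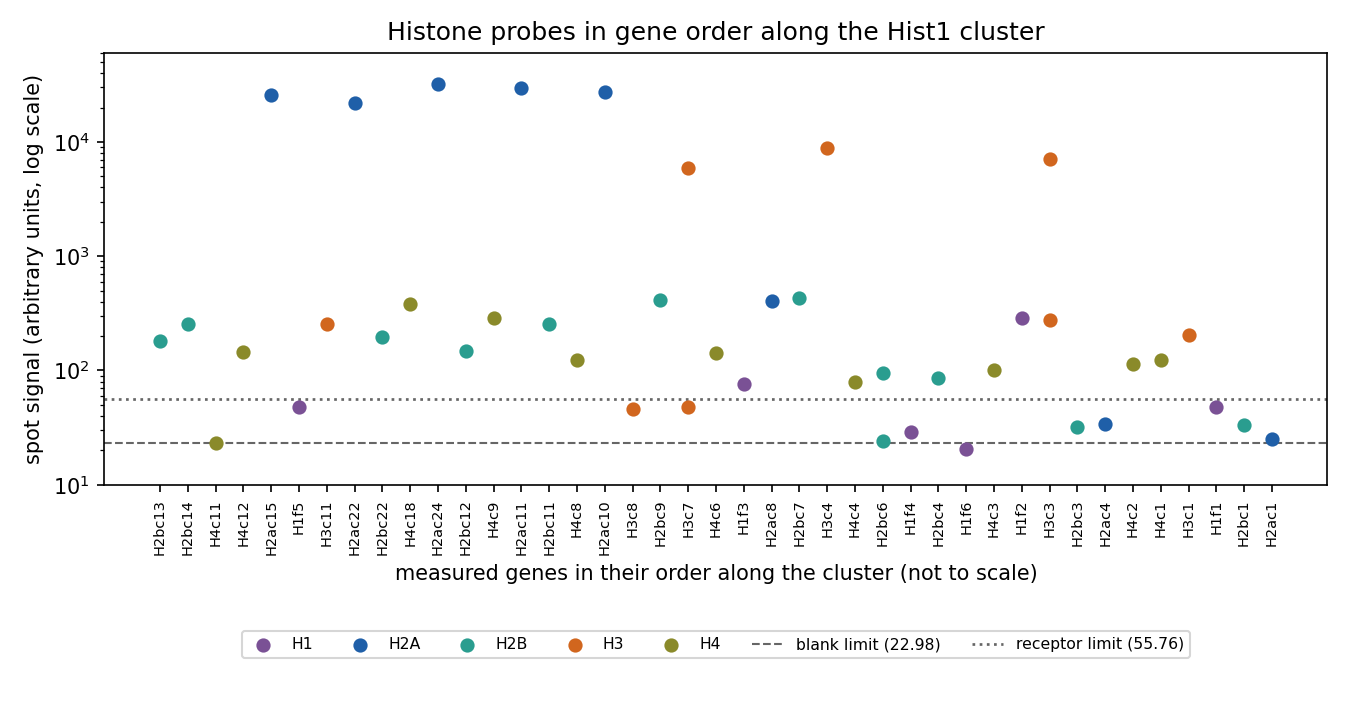
Points are the histone probes of the Hist1 cluster, in the order of their genes along the chromosome and not to scale, with signal in arbitrary units on a log axis and colour by family; lines are the 2 limits. Probes of H2A at 21737 to 32142 stand between neighbours of other families, the highest of them 384.1.

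Neighbouring H2A and H2B genes often share 1 promoter region and are transcribed away from each other. In the data, 3 such pairs with RefSeq starts at most 300 bases apart had promoter windows and probes for both genes. H2ac11 read 29774 and H2bc11, whose start lies 248 bases away, read 256.3. H2ac22 read 21737 and H2bc22, with 239 bases between the starts, read 196.1. In the testis pair, with 280 bases between, H2ac1 read 25.29 and H2bc1 read 33.03. In both somatic pairs the 2 genes passed the receptor limit, and in the testis pair neither did.

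The bases before the H2A gene of each pair are shown with those before H2az1 and H3f3b, variants with bright readings, so that the clustered, testis and variant promoters can be set side by side. Each is the 250 bases before the RefSeq start in assembly GRCm38.p6, 5′ to 3′ on the strand of the named gene, with 3 motifs in capitals on either strand: the box CCAAT, the TATA box in the form TATAAA, and the octamer in the form ATTTGCAT. They lie at chr13:22042950-22043199 (minus strand) for H2ac11, chr13:21787249-21787498 (minus) for H2ac22, chr13:23934187-23934436 (plus) for H2ac1, chr3:137864237-137864486 (plus) for H2az1 and chr11:116024505-116024754 (minus) for H3f3b.
H2ac11: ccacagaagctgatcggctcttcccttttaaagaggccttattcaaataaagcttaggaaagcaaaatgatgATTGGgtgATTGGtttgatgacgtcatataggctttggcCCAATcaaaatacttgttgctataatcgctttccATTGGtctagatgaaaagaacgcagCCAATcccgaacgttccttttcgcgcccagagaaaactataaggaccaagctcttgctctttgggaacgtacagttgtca
H2ac22: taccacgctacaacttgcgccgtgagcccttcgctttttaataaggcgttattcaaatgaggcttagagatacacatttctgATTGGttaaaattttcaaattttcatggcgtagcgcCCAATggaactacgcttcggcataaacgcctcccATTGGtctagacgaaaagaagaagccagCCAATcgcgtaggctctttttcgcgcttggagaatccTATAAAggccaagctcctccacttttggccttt
H2ac1: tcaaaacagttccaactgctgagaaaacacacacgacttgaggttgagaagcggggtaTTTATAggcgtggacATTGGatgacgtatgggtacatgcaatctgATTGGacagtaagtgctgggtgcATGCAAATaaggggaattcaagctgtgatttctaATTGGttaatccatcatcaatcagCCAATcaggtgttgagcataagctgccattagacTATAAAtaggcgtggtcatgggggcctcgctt
H2az1: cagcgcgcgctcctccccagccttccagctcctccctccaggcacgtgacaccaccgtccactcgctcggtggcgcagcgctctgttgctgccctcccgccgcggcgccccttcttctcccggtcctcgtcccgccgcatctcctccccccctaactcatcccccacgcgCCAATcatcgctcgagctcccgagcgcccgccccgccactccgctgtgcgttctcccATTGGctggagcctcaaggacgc
H3f3b: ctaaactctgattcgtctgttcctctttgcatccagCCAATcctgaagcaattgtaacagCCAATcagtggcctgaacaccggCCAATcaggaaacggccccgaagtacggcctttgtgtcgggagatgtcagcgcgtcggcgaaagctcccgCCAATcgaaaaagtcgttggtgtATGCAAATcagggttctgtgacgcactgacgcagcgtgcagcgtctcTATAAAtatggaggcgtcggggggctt

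In these stretches the region of H2ac11 held 5 CCAAT boxes and that of H2ac22 held 4, with 1 TATAAA in the latter and none in the former. The testis region of H2ac1 held 4 CCAAT boxes, 2 TATAAA and 1 octamer. H2az1 differed in base content, with 71.2% G and C against 42.8% to 45.6% in the 3 pairs, and held 2 CCAAT boxes and no TATAAA. H3f3b held 4 CCAAT boxes, 1 TATAAA and 1 octamer, at 54% G and C.

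Promoter windows of 300 bases, 250 before and 50 after the RefSeq start, were found for 42 clustered and 8 variant genes. CCAAT on either strand was in 35 of 43 clustered windows, or 81.4%, and in 6 of 8 variant windows, or 75%, against 37.4% of all 32851 windows. TATAAA was in 25 clustered windows, or 58.1%, and in 1 variant window, or 12.5%, against 13.6% of all. The octamer was in 9 clustered windows, or 20.9%, and in 1 variant window, that of H3f3b, against 1.735% of all. The clustered families differed in windows with 3 or more CCAAT boxes. These were 11 of 11 H2B, 6 of 10 H2A and 3 of 5 H3 windows. In H1 they were 1 of 6 and in H4 0 of 11, against 3.37% of all windows. On this count the classes were alike, with 21 of 43 clustered windows, or 48.8%, and 4 of 8 variant windows, or 50%. Among clustered windows the octamer was in 5 of H2B and 4 of H2A, and in none of H1, H3 or H4. Paired genes share part of their windows, and a match is a run of letters and not a shown binding site. The median share of G and C was 45.3% in clustered, 58.2% in variant and 52.7% in all windows.

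Most genes that process histone mRNA or carry histones gave signal over the receptor limit. Of 18 measured genes for making and ending replication-dependent histone mRNA, 16 lay over the receptor limit, or 88.9%, against 42.8% of all genes, with a median of 253.7. Slbp, which encodes the protein that binds the stem-loop, read 1436, and the cleavage enzyme gene Cpsf3 read 1000 and 883 on 2 probes. Srrt, at 629.5, and Ncbp2 and Ncbp1, at 629.4 and 508.8, encode proteins at the cap of new transcripts. Zfp473, a zinc-finger gene of the histone mRNA machinery, read 21.02 and Cramp1l read 19.68, neither over the blank limit.

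Histone chaperones escort histones to and from DNA. By the highest probe, all 28 measured ones lay over the blank limit and 24, or 85.7%, over the receptor limit. The shares over all genes were 72.8% and 42.8%, and the chaperone median was 555.9. Probes of the same chaperone gene could differ. With the lowest probe of each gene, 20 of 28, or 71.4%, lay over the receptor limit, against 40.4% of all genes read the same way. Not all of these chaperones lay over the blank limit then, which 70.9% of all genes passed. Npm1 read 19216, and probes of Set read 10438 and 4329. Nap1l1, a carrier of H2A and H2B, read 4807 and 810.8, and Nasp, a carrier of H3 and H4, read 2818. Anp32e, which removes H2A.Z, read 2442. The 4 between the limits were Hira at 54.15, Ubn1 at 38.7 and Cabin1 at 25.7, partners in the complex that deposits H3.3, and Supt6 at 33.16. These were named after their values had been seen. All 26 genes of the S phase list, which shares Slbp with the first list, lay over both limits. Their median was 1008, and the shares over all genes were again 72.8% and 42.8%. The replication clamp gene Pcna read 11015, Ccna2 read 2433, Mcm6 and Mcm4 of the replicative helicase read 2159 and 2025, and Rrm1, a subunit of the enzyme that makes deoxynucleotides, read 1869.

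Local background was high around the bright histone spots. At the 8 bright clustered H2A spots it ranged from 484.1 (H2ac15) to 12560 (H2ac24), with a median of 6753, against a median of 17.14 at the 2736 blanks. Another 61 gene spots within the same range of signal had a median local background of 5370, with the 5th and 95th percentiles at 949.6 and 14223. H2ac15 thus lay under that range and the other 7 inside it. After subtraction the 8 still read from 6710 up, and the 4 bright H3 spots from 3243 up. Some dim spots lay next to very bright ones. The brightest spot beside H3c11 read 32848, beside H3c1 20429 and beside H4c12 19879, while their own local backgrounds were 28.86, 23.8 and 27.14. H2bc3, at 32.31, lay beside a spot of 12300, and its local background was 26.52.

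**Figure D5:**
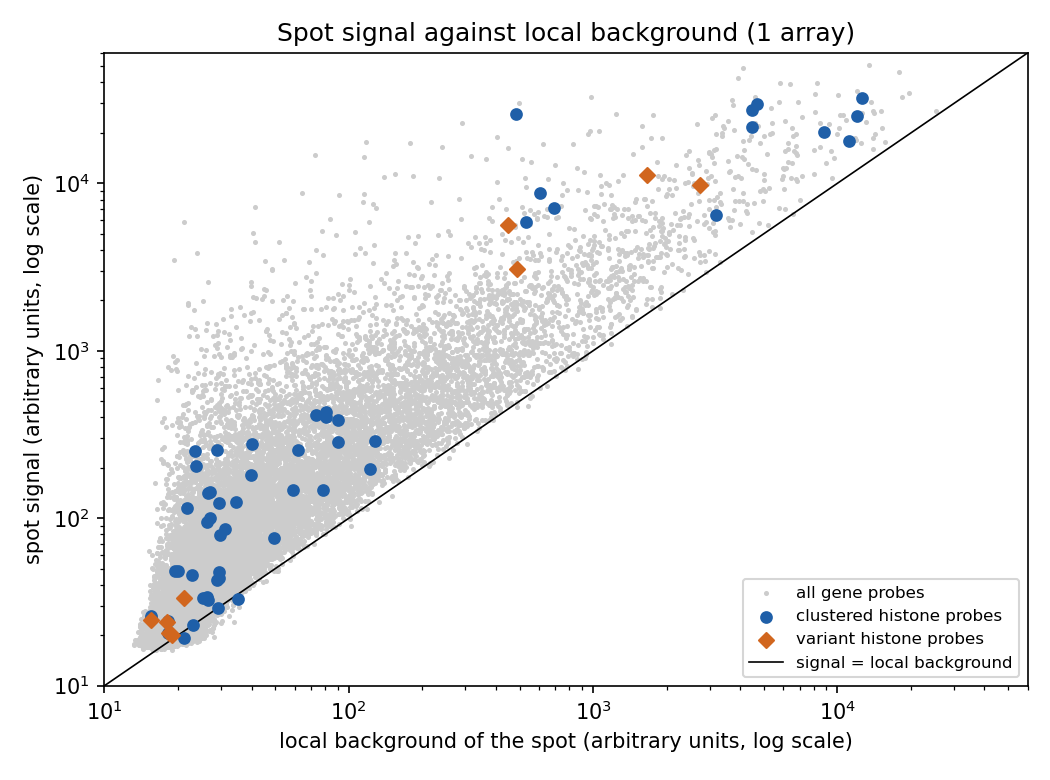
Spot signal is plotted against the local background of the same spot, both in arbitrary units on log axes, for all gene probes (grey), clustered histone probes (circles) and variant probes (diamonds); the line marks equality. Bright histone spots lie among other bright probes with local backgrounds of 450.5 to 12560, and H2bc1 and Hist3h2a read less than their own local background.

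The authors' deposited table gave a value for 59 of the 63 histone probes. The 4 without one were H1f6, H1f8, H2bfm and Hist3h2a, the same probes that were not over the blank limit. For the 16 bright probes the authors' value was 0.4858 times the signal less the blank mean (SD 3.819e-05), so it adds no separate measurement of these genes.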

How the data were processed

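Per the labels' protocols, total RNA of the parental line was column-purified, amplified to amino allyl RNA and coupled to Cy5 for a Toray array. Per the file headers, the deposited intensity values are the median spot and local background intensities in the Cy5 channel, joined over 3 scanner gains. No source used here names the joining tool or the probes' genome build. The authors' deposited table holds processed intensity on a linear scale, whose scale and treatment of low values are not stated.

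Of 27456 spots, 2736 were blanks. After 5% were trimmed at each end, 2464 blanks with mean 20.63 and SD 1.176 set the blank limit. For the receptor limit the 95th percentile was taken over 1224 probes. No spot was flagged other than OK, and no member was saturated. Spots of 1 probe were averaged. Symbols came from the platform annotation. RefSeq (GRCm38.p6) lists 83 genes under the same pattern, of which 56 had a named probe; 2 member genes had no RefSeq match. H1f1 to H1f6, H2ac, H2bc, H3c, H4c, H4f and Hist-numbered symbols were clustered, all others variants. Named were all variants, clustered genes over the receptor limit or with disagreeing probes, testis members, and from each related list the 5 genes with the highest signal and those not over the blank limit; the remaining clustered genes and 4 chaperones between the limits were named after their values had been seen. Members and lists were chosen with earlier results of these data known. Python 3.11.15, pandas 2.3.3 and limma 3.58.1 (normexp, offset 50) were used, and the counting was tested on simulated data. Counts of genes over a limit have no test, since 1 array limits the precision of every value.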

Additional observations from a re-analysis of the deposited data

How the results depend on the processing

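Limits were also set at 1 or 3 SD, from untrimmed blanks, from the blanks' 99th percentile and block by block, at the 90th or 99th percentile of the receptor probes, and calls were repeated with local background subtracted, with normexp, with the lowest probe of a gene, with updated symbols and from the authors' table. Under these the clustered genes over the blank limit numbered 43 to 47, the variants 5 to 7, and at the receptor limit 24 to 39 and 4. The share of all genes ran from 63.2% to 77.2% at the blank limit under the same settings. At the receptor limit it ran from 27.6% to 49.6%. With local background subtracted, 43 clustered genes, or 87.8%, and 7 variants, or 77.8%, passed the blank limit, against 63.2% of all genes. The variant share stayed under the clustered share in these settings except without testis and germline members. There the difference was 2.174 points at the blank limit and -7.246 points at the receptor limit, with the pseudogene H1f11-ps still among the variants. Without germline members and pseudogene, 4 of 5 variants, or 80%, lay over the receptor limit. That was above the 34 of 46 clustered genes, or 73.9%, left without testis members. A wider variant class and one without the pseudogene were chosen after seeing the data. With the histone variants outside the pattern added, 17 of 24 variants lay over the blank limit and 9 over the receptor limit. These counts rose because more genes were counted, while the shares were lower, at 70.8% and 37.5%. The same change put 2 more genes into the clustered class, now 51, and the differences became -25.25 and -29.17 points. Leaving out the pseudogene, with the germline members kept, did not change the direction. Of 58 genes, 52 kept their side of the blank limit and 42 that of the receptor limit under every setting in which single genes were rerun. The lists of related genes kept their counts within 1.5 times. What 1 array limits is the spread between samples, which is unknown here.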

Other observations

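Another 17 histone genes carry current symbols that the pattern does not take, and 12 of them, or 70.6%, lay over the blank limit and 5, or 29.4%, over the receptor limit, against 72.8% and 42.8% of all genes. This list was drawn up after the data had been seen. Cenpa, the H3 form of the centromere, read 4012. H2aj, an H2A form with a tailed mRNA, read 2239, and H2ax, the form phosphorylated at DNA breaks, read 398.8. The macroH2A genes Macroh2a1 and Macroh2a2, whose large H2A forms mark silent chromatin, read 1081 and 105.3, while Macroh2a3 lay between the limits at 35.23. The other 11 read from 19.01 (H2al3) to 44.17 (H2bu2). Among them Hils1, a spermatid linker histone, read 19.15 and the H2A.B gene H2ab1 read 23.05, so no germline form in this list passed the receptor limit.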
